A study of Mus musculus with 6 samples.

Results

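Transcripts of 10 transcription regulators that act together in blood stem cells were examined in sorted mouse haematopoietic stem cells with and without induction of the ETV6-RUNX1 fusion. The 10 genes, taken by symbol from the deposited expression table, were Gata2, Tal1, Lyl1, Lmo2, Erg, Fli1, Hlf, Mecom, Gfi1b and Ldb1. All 10 were found among the 55471 gene IDs of the table, and all 10 were among the 13470 genes that were tested because their average over the libraries reached 1 TPM. TPM is a length-corrected share of a library, so levels of different genes can be compared on it. The cells had been sorted as Lin- Kit+ Sca1+ with CD150 on the surface and without CD48, and every library carried the genotype label ETV6-RUNX1. The uninduced group (3 libraries) received no doxycycline, and the induced group (3 libraries) received doxycycline food for 2 weeks. ETV6-RUNX1 joins an ETS-family repressor to the DNA-binding factor RUNX1 and is found in childhood B-cell precursor leukaemia. The labels used here give no age, strain, driver of the transgene or number of mice per library, and no doxycycline-treated group without the fusion was analysed here. The effects of the fusion and of doxycycline therefore cannot be told apart, and p-values measure the spread between these libraries.

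In blood stem and progenitor cells, TAL1, LYL1, LMO2, GATA2, RUNX1, ERG and FLI1 occupy many enhancers in combination and are known as the heptad. LMO2 does not bind DNA itself. It bridges the basic helix-loop-helix proteins TAL1 or LYL1, paired with an E protein, to GATA factors, and LDB1 holds such complexes together and can join distant elements by self-association. HLF and MECOM are stem cell regulators outside the heptad, and GFI1B is a repressor whose gene is a target of these factors. In the mouse, Hlf marks stem cells, Mecom and Gata2 are needed for their maintenance, and loss of Gfi1b alters stem cell quiescence.

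The windows around the annotated starts of the members whose values differed most between groups or within a group are shown because GATA, E-box and ETS words are the letters that the heptad proteins read. RefSeq promoter windows (GRCm38.p6, from 250 bases before to 50 bases after a start) matched 8 of the 10 genes, with 15 windows, and Lmo2 and Fli1 were not matched. Capitals mark, on either strand, the E-box word CAGNTG (N is any base), the ETS word GGAAG and the GATA words. The GATA words are AGATAA, its variant with a T at the front, TGATAA, and the same pair ending in G, which read AGATAG and, with the T at the front, TGATAG.
Hlf (chr11:90390868-90391167, minus strand): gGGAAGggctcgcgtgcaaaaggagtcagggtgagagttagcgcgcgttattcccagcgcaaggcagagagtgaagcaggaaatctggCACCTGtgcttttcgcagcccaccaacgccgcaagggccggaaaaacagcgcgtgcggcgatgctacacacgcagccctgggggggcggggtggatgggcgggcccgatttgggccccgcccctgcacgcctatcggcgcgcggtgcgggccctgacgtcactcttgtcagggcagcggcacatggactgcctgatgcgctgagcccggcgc
Mecom (chr3:30509710-30510009, minus strand): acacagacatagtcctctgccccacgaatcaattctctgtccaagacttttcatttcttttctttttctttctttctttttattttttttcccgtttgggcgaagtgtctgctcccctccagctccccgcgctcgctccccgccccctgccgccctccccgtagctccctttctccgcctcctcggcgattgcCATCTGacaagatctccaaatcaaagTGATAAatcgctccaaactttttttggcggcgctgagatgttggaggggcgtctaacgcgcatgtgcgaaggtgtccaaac
Gfi1b (chr2:28621933-28622232, minus strand): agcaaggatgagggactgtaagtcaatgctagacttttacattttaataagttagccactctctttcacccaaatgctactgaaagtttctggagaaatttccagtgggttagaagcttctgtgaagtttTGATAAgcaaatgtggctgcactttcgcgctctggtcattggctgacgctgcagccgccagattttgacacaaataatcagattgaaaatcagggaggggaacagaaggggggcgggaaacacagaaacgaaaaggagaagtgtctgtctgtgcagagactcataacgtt
Tal1 (chr4:115056176-115056475, plus strand): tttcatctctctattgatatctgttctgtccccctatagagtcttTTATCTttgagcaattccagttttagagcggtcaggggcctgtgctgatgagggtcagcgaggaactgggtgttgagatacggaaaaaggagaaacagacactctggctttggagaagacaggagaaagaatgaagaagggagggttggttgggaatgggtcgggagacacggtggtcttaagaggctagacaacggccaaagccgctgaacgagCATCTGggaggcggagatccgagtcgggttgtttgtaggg
Lyl1 (chr8:84701207-84701506, plus strand): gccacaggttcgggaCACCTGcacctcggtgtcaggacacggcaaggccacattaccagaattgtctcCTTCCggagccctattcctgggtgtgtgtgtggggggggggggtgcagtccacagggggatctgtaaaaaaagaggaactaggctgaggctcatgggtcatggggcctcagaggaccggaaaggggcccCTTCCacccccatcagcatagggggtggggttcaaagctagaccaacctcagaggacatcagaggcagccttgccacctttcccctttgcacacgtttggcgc
The Hlf window held 1 E-box word and 1 ETS word and no GATA word. The Mecom window, at 1 of 2 matched starts, held 1 E-box word and 1 GATA word, and the other Mecom window held 1 GATA word, 1 ETS word and no E-box word. The Gfi1b window held 1 GATA word and neither of the others. The Tal1 window, at 1 of 2 matched starts, held 1 GATA word and 1 E-box word, and the other Tal1 window held 2 ETS words and neither of the others. The window of its relative Lyl1 held 1 E-box word, 2 ETS words and no GATA word. No marked words overlapped in these windows. Over the 15 windows of the members, 6 held a GATA word, 7 an E-box word and 8 an ETS word. Of all 32851 windows of this length, 29.8% held a GATA word, 51.4% an E-box word and 71.4% an ETS word. The RUNX word TGNGGT was in 5 of the 15 windows and in 45.8% of all windows, and the word TTANGTAA, read by HLF and its relatives, was in 0 of the 15 and 2.32% of all. A match is a description of letters and no evidence of binding.

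Libraries of a group correlated across tested genes with Spearman coefficients of 0.884 to 0.903, and libraries of different groups with 0.836 to 0.853. Depth per library is unknown from TPM. The median log2 change of all tested genes was -0.35 on the deposited scale and 0.0032 after median-of-ratios scaling, which divides each library by its typical ratio to the mean library. Changes are therefore given on the deposited scale, and those of the 10 factors with the rescaled value beside them. In bulk libraries, fewer cells of a type and less RNA per cell cannot be told apart.

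The 10 factors were unevenly abundant. Lmo2 was highest in every library, at 285 to 342 TPM in uninduced and 327 to 421 TPM in induced cells, and its values did not overlap those of the next gene in either group. In uninduced cells Gata2 and Ldb1 followed at 99.6 to 165 TPM, with overlapping ranges, and Erg, Hlf, Fli1 and Mecom lay together at 50.6 to 93.2 TPM. Lyl1, Gfi1b and Tal1 were lowest there, and each overlapped its neighbour in the order. In induced cells Hlf stood second, at 116 to 146 TPM, overlapping Gata2 at 97.2 to 118 TPM. The lower end separated in that group, with Fli1, Tal1, Lyl1 and Gfi1b in descending order and no overlap between neighbours. The summed TPM of the 10 genes was 870, 1034 and 844 in uninduced and 970, 970 and 1074 in induced libraries, which overlapped.

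**Figure D1:**
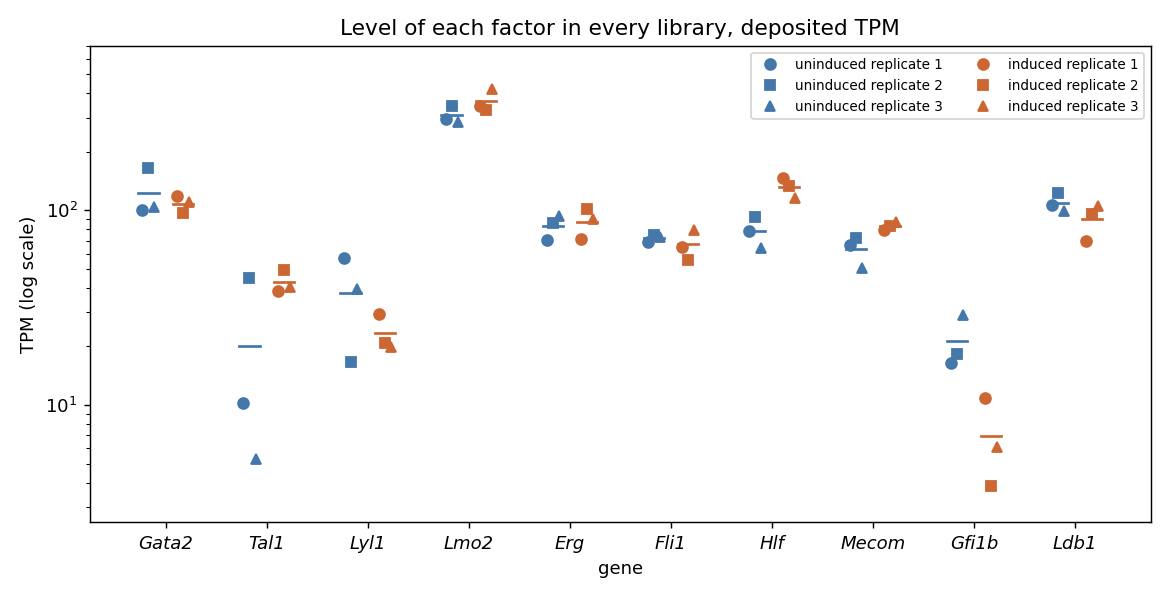
TPM of each of the 10 genes (horizontal axis) in every library on a log vertical axis. Blue symbols are the 3 uninduced and orange symbols the 3 induced libraries, symbol shapes mark the replicate number and short lines are group means. Hlf and Mecom lie higher and Gfi1b lower in all induced libraries, and Tal1 spreads from 5.28 to 44.7 TPM among uninduced libraries.

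On the deposited scale 2 of the 10 genes passed a limma adjusted p of 0.05: Hlf was higher and Gfi1b lower in induced cells. Of all tested genes 11.5% passed, 1.29% as higher and 10.2% as lower. With median-of-ratios scaling 3 of the 10 passed in limma, Hlf, Mecom and Lmo2, all higher, and 0 were lower. At that adjusted threshold 5.98% of all tested genes passed, 2.88% as higher and 3.10% as lower. At an unadjusted p under 0.05 the rescaled fit had 5 of the 10 higher and 1 lower, where 1447 of the 13470 tested genes were higher and 1485 lower. The median log2 change of the 10 was -0.027 on the deposited scale and 0.38 after rescaling, and 8 of the 10 lay above the median tested gene on both scales. The groups did not overlap for Hlf, Mecom and Gfi1b on the deposited scale, where 33.1% of all tested genes did not overlap. After rescaling Tal1 and Lmo2 joined them, and 27.9% of all tested genes did not overlap.

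**Figure D2:**
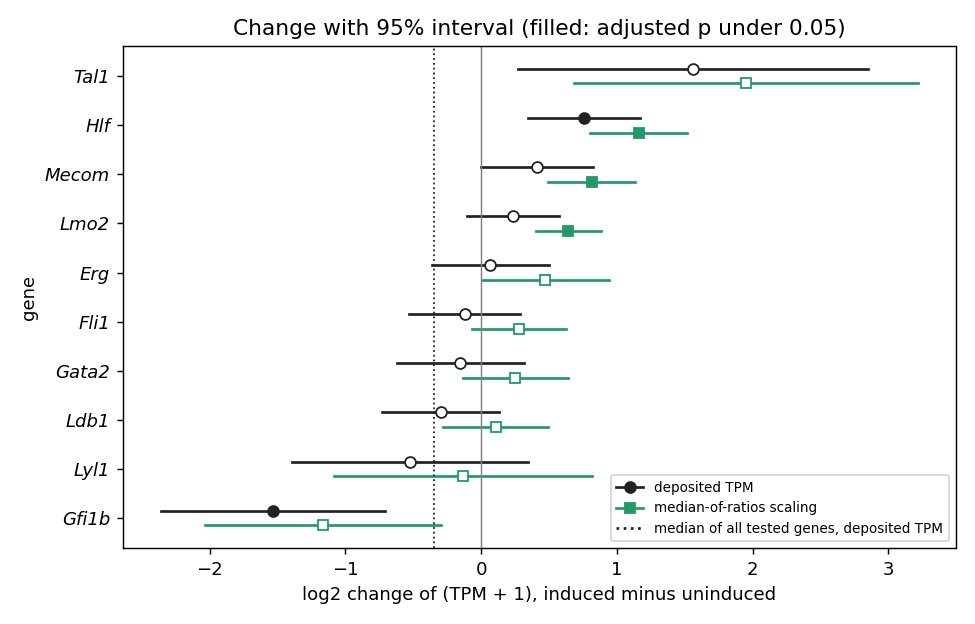
Log2 change of TPM + 1, induced minus uninduced (horizontal axis), for each of the 10 genes, with 95% limma intervals. Black circles are on the deposited scale, green squares are after median-of-ratios scaling, filled symbols passed an adjusted p of 0.05, and the dotted line is the median of all tested genes at -0.35. Hlf is filled on both scales, Gfi1b on the deposited scale, and Mecom and Lmo2 after rescaling.

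Among the complex-building genes, Lmo2 (ENSMUSG00000032698, chr2:103957986-103981878 in GRCm38) encodes the bridging protein. It was at 296, 342 and 285 TPM in uninduced libraries 1, 2 and 3 and 342, 327 and 421 TPM in induced ones. The highest uninduced library thus reached the lower induced ones. The log2 change was 0.24 (SE 0.15, limma adjusted p 0.347), was 0.12 without induced replicate 3, and became 0.64 (SE 0.11, limma adjusted p 0.0125) after rescaling. In that rescaled fit, the call was lost when induced replicate 3 was left out (0.58, limma adjusted p 0.0542). Ldb1 (ENSMUSG00000025223, chr19:46031570-46045214), the adaptor, was at 106, 123 and 99.6 TPM and at 69.3, 95.6 and 105 TPM. Induced replicate 1 was the lowest of the 6 libraries, induced replicate 2 lay just below the uninduced range, and induced replicate 3 lay within it. Its log2 change of -0.30 (95% interval -0.73 to 0.13, limma adjusted p 0.354) became 0.11 after rescaling (interval -0.28 to 0.49, limma adjusted p 0.771), so the sign of the change turned with the scale. As a share of the summed TPM of the 10 factors, which a scaling factor per library leaves as it is, Ldb1 was 12.1%, 11.9% and 11.8% in uninduced and 7.14%, 9.86% and 9.73% in induced libraries. That share was lower in every induced library than in any uninduced one. A share also depends on the other factors in the sum, so it is no measure of Ldb1 alone. The shares of Hlf, Mecom and Gfi1b did not overlap between groups either.

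Tal1 (ENSMUSG00000028717, chr4:115056426-115071755) and Lyl1 (ENSMUSG00000034041, chr8:84701457-84704715) encode related helix-loop-helix proteins that can each take the same place in the complex. Tal1 was at 10.2, 44.7 and 5.28 TPM in uninduced libraries 1, 2 and 3 and at 38.6, 49.7 and 40.2 TPM in induced libraries. Uninduced replicate 2 lay within the induced range and the other 2 lay far below it. The coefficient of variation of Tal1 was 107% in uninduced and 14.0% in induced libraries. Its log2 change was 1.56 (SE 0.58, limma adjusted p 0.111), and 1.95 after rescaling (limma adjusted p 0.0793), neither of which passed. Without uninduced replicate 2 the change was 2.38 and passed (limma adjusted p 0.0146), and without uninduced replicate 3 it was 0.94 and did not (limma adjusted p 0.274). It also passed after rescaling with the replicate number as a block (1.95, limma adjusted p 0.0483), although no label pairs the libraries, and after rescaling to nuclear protein-coding genes (1.98, limma adjusted p 0.0434).

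Lyl1 ran the other way among the uninduced libraries, at 56.9, 16.6 and 39.5 TPM, so uninduced replicate 2 was lowest in Lyl1 and highest in Tal1. The induced libraries were closer together, at 29.3, 20.9 and 19.9 TPM, all within the uninduced range. Its log2 change was -0.52 (interval -1.39 to 0.34, limma adjusted p 0.417) and -0.13 after rescaling (interval -1.08 to 0.82, limma adjusted p 0.896). Without uninduced replicate 2 the deposited-scale change was -1.01 (limma adjusted p 0.0713). The ratio of Tal1 to Lyl1 within a library was 0.18, 2.69 and 0.134 in uninduced libraries 1, 2 and 3, and 1.32, 2.37 and 2.02 in the induced libraries. Lyl1 thus exceeded Tal1 in 2 of 3 uninduced libraries and in 0 of 3 induced libraries. The log2 ratio differed by 2.20 between group means, with overlapping groups (exact two-sided permutation p = 0.4, adjusted p = 0.48 over 6 pairs), by 3.58 without uninduced replicate 2 and by 1.41 without uninduced replicate 3. A ratio within a library does not change when the library is multiplied by a scaling factor, and 3 libraries against 3 cannot give an exact p below 0.1. The whole span of Lyl1 lies inside Nfix, a nuclear factor gene on the opposite strand, in the GENCODE annotation. Nfix was at 45.6 to 52.3 TPM and 39.1 to 47.1 TPM. The library kit keeps strand per the labels, but whether strand was used in quantification is not given in the sources used here.

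Gata2 (ENSMUSG00000015053, chr6:88193891-88207032), the zinc finger member of the heptad, was at 101, 165 and 104 TPM in uninduced and at 118, 97.2 and 110 TPM in induced libraries. Uninduced replicate 2 was again apart, as the highest of the 6, and the remaining 5 libraries lay between 97.2 and 118 TPM. The log2 change was -0.15 (interval -0.62 to 0.31, limma adjusted p 0.674) and 0.25 after rescaling (interval -0.14 to 0.64, limma adjusted p 0.449). Without uninduced replicate 2 the deposited-scale change turned to 0.074 (limma adjusted p 0.802). Gata1, the erythroid and megakaryocytic relative that replaces GATA2 at shared sites as those lineages form, was at 3.24, 7.74 and 4.04 TPM and at 1.70, 4.08 and 2.51 TPM. Gata2 exceeded Gata1 by 21.4 to 31.2 times in uninduced and by 23.8 to 69.8 times in induced libraries, ranges that overlapped (exact permutation p = 0.3, adjusted p = 0.45 over 6 pairs).

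Erg (ENSMUSG00000040732, chr16:95359169-95586593) and Fli1 (ENSMUSG00000016087, chr9:32422204-32542861) encode closely related ETS activators. Erg was at 70.4, 85.7 and 93.2 TPM in uninduced and at 70.9, 102 and 90.0 TPM in induced libraries. Fli1 was at 68.5, 74.6 and 73.3 TPM and at 64.9, 55.9 and 79.7 TPM. Both genes overlapped between groups throughout. The log2 change of Erg was 0.068 (interval -0.36 to 0.50, limma adjusted p 0.852) and 0.47 after rescaling (interval 0.0052 to 0.94, limma adjusted p 0.226). The log2 change of Fli1 was -0.12 (interval -0.53 to 0.28, limma adjusted p 0.703) and 0.28 after rescaling (interval -0.068 to 0.63, limma adjusted p 0.338). Erg exceeded Fli1 in each of the 6 libraries, by 1.03 to 1.27 times in uninduced and 1.09 to 1.82 times in induced libraries (difference between groups, exact permutation p = 0.7, adjusted p = 0.7 over 6 pairs).

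Hlf (ENSMUSG00000003949, chr11:90336536-90390895), a bZIP factor of the PAR family, was at 78.0, 92.8 and 64.3 TPM in uninduced libraries and at 146, 134 and 116 TPM in induced libraries. Every induced library exceeded every uninduced library. The log2 change was 0.76 (SE 0.19, limma adjusted p 0.0294) and 1.16 after rescaling (SE 0.16, limma adjusted p 0.00491). On the deposited scale the call held in 1 of 6 fits that each left out a library, without uninduced replicate 2, with adjusted p of 0.0369 to 0.109. The replicate block also ended it (limma adjusted p 0.0554). After rescaling the call held in all 6 such fits, with log2 changes of 1.09 to 1.30 and adjusted p of 0.0112 to 0.0345, and with the block (adjusted p 0.018). As a share of the summed TPM of the 10 factors, Hlf was 8.96%, 8.97% and 7.61% in uninduced and 15.1%, 13.8% and 10.8% in induced libraries. Its relative Nfil3, a repressor that binds similar sites, was at 1.09, 2.64 and 0.306 TPM in uninduced libraries. In induced libraries it was listed at 0, 0.374 and 0.093 TPM, below the expression minimum, so it was not tested.

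Mecom (ENSMUSG00000027684, chr3:29951296-30548008), which encodes the EVI1 zinc finger proteins, was at 66.6, 72.0 and 50.6 TPM and at 79.4, 83.4 and 87.2 TPM. The groups did not overlap, and the induced libraries spanned less than the uninduced ones, with coefficients of variation of 4.66% and 17.7%. The log2 change was 0.41 (SE 0.18, limma adjusted p 0.178) on the deposited scale, where it was 0.26 without uninduced replicate 3, and 0.81 (SE 0.14, limma adjusted p 0.0141) after rescaling. The rescaled call was lost without uninduced replicate 3, induced replicate 2 or induced replicate 3, with adjusted p up to 0.0623. Mecom was 7.66%, 6.97% and 5.99% of the summed TPM of the 10 in uninduced and 8.19%, 8.60% and 8.11% in induced libraries. Prdm16, the related stem cell factor, was at 19.4, 13.3 and 10.8 TPM and at 17.1, 6.86 and 10.5 TPM. Mecom exceeded Prdm16 by 3.43 to 5.41 times in uninduced and 4.64 to 12.1 times in induced libraries, with overlap (exact permutation p = 0.3, adjusted p = 0.45 over 6 pairs).

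**Figure D3:**
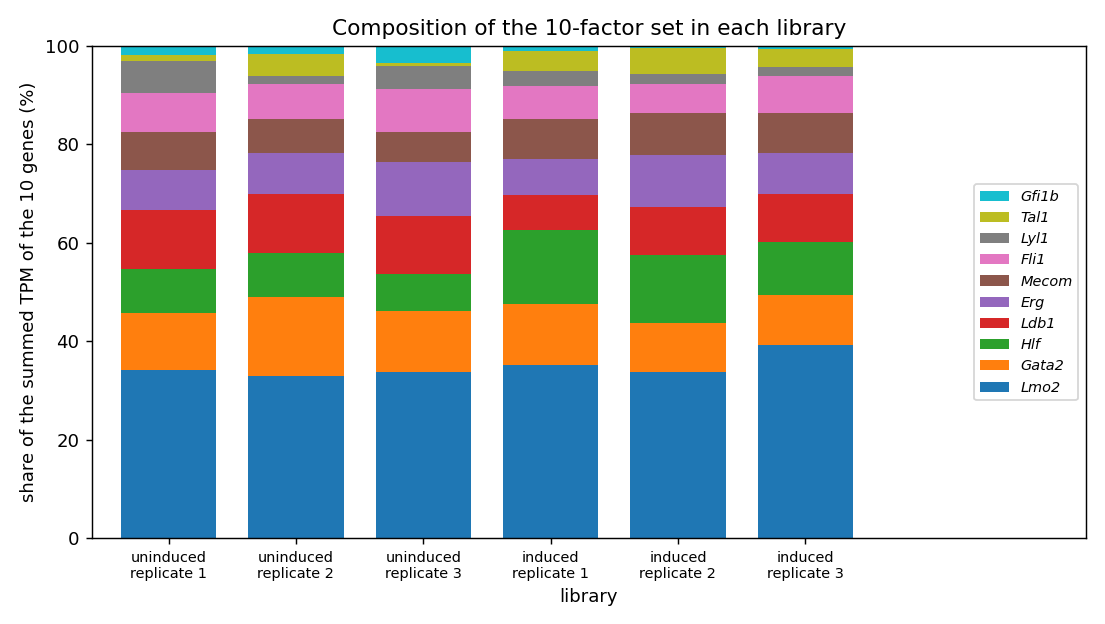
Share of each gene in the summed TPM of the 10 genes (vertical axis, percent) in each of the 6 libraries (bars). Lmo2 holds 33.0% to 39.2% in every library. The Hlf band is wider and the Gfi1b band narrower in the 3 induced libraries, and the Tal1 and Lyl1 bands change places between uninduced replicate 2 and the other uninduced libraries.

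Gfi1b (ENSMUSG00000026815, chr2:28609450-28621982) encodes a zinc finger repressor needed for erythroid and megakaryocytic cells. It was at 16.4, 18.3 and 29.0 TPM in uninduced and at 10.9, 3.85 and 6.12 TPM in induced libraries. All induced libraries lay below all uninduced ones. The log2 change was -1.54 (SE 0.37, limma adjusted p 0.0276) and -1.17 after rescaling (SE 0.38, limma adjusted p 0.116), where the call was lost although the groups still did not overlap. On the deposited scale the call also held without induced replicate 1 (-1.88, limma adjusted p 0.0287) and with the replicate block (limma adjusted p 0.0447). It was lost without any other library, with log2 changes of -1.23 to -1.69 and adjusted p of 0.0662 to 0.105.

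Gfi1, the relative of Gfi1b that shares its repressor domain and can bind the same sites, moved the opposite way. It was at 3.88, 3.46 and 2.16 TPM in uninduced and at 12.5, 13.6 and 12.5 TPM in induced libraries, without overlap. Gfi1 rose by 1.76 on the log2 scale (SE 0.30; limma, adjusted p 0.00709), and by 2.10 after rescaling (adjusted p 0.00448). Within a library the ratio of Gfi1b to Gfi1 was 4.23, 5.29 and 13.4 in uninduced and 0.873, 0.283 and 0.491 in induced libraries. The order of the pair was thus opposite in the groups, in 3 of 3 libraries each. The log2 ratio differed by -3.76 between group means (exact two-sided permutation p = 0.1, the smallest these group sizes allow, adjusted p = 0.45 over 6 pairs). Leaving out a library gave differences of -4.17 to -3.26.

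**Figure D4:**
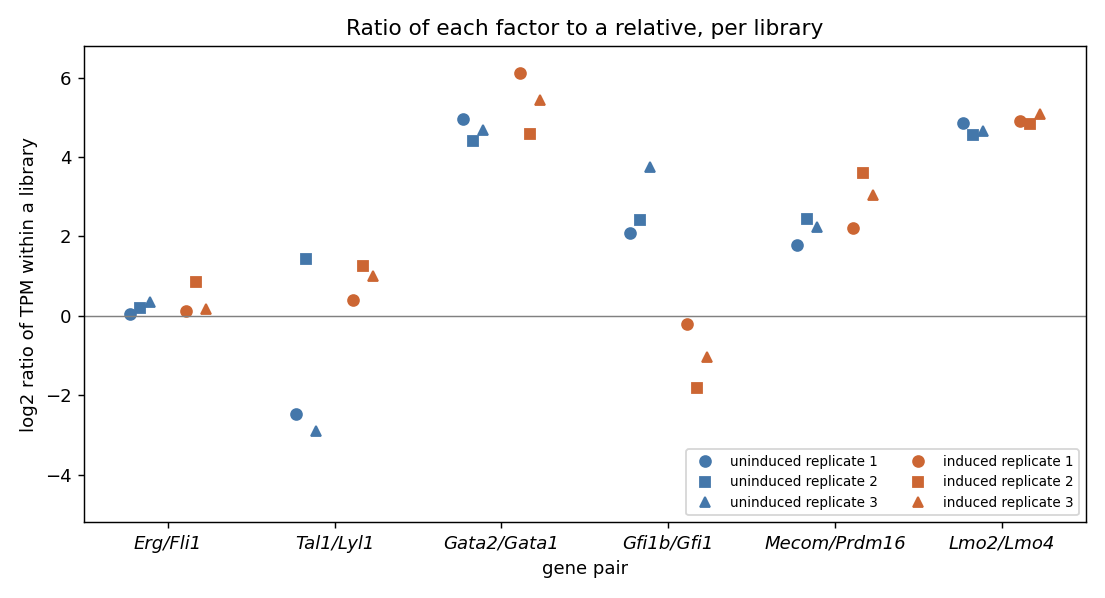
Log2 ratio of TPM of each factor to a relative within each library (vertical axis) for 6 gene pairs (horizontal axis). Blue symbols are uninduced and orange symbols induced libraries, with shapes for the replicate number. The Gfi1b/Gfi1 ratio lies above 0 in the 3 uninduced and below 0 in the 3 induced libraries, and Tal1/Lyl1 lies above 0 in uninduced replicate 2 but below 0 in the other uninduced libraries.

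Lmo4, a relative of Lmo2 that also binds LDB1, stayed far below it, at 10.3 to 14.6 TPM in uninduced and 11.4 to 12.4 TPM in induced libraries. Lmo2 exceeded Lmo4 by 23.4 to 28.8 times in uninduced and 28.6 to 34.0 times in induced libraries, with overlap (exact permutation p = 0.2, adjusted p = 0.45 over 6 pairs). Runx1, the heptad gene that is also a parent of the fusion, was at 46.1, 35.6 and 29.4 TPM and at 49.8, 39.3 and 44.1 TPM, with overlap. Whether reads of the fusion transcript count towards that gene is not given in the sources used here. Its log2 change was 0.27 (limma adjusted p 0.452) and 0.67 after rescaling (limma adjusted p 0.0729), where the groups did not overlap. It passed after rescaling to nuclear protein-coding genes (0.70, limma adjusted p 0.0452).

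Partner genes of the factors were compared as lists, by counts and medians, beside the median of all tested genes of -0.35. A list of 16 genes held partners of the LDB1-LMO2 complex, E-protein genes and other genes linked to them, among these relatives such as Lmo4 and Gata1. Of the 16, 12 were tested, 0 rose and 1 fell, with a median log2 change of -0.56, and of -0.18 after rescaling. The gene that fell was Ssbp3, which encodes a protein that binds LDB1, at 48.2, 53.4 and 31.1 TPM against 21.1, 15.3 and 22.8 TPM (log2 change -1.11, limma adjusted p 0.0252). This call was lost after rescaling (-0.71, limma adjusted p 0.0836), which left 0 of the 12 called by limma, with 1 higher and 1 lower at an unadjusted p under 0.05. The E-protein gene Tcf3 was at 37.5 to 54.5 TPM and 24.7 to 37.6 TPM, and did not pass (limma adjusted p 0.0852).

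A list of 11 genes held Gfi1, described above, and 10 genes of the corepressor complexes that GFI1B recruits. All were tested, and the median of the 11 was -0.58, and -0.18 after rescaling. Of the 10 corepressor genes 0 rose and 3 fell, Rcor2 and Hdac2 among them. Rcor2, a CoREST scaffold gene, was at 15.1, 21.3 and 22.6 TPM against 5.70, 8.95 and 5.24 TPM (log2 change -1.45, limma adjusted p 0.0143). Hdac2, a histone deacetylase gene, had a log2 change of -0.81 (limma adjusted p 0.0432). After rescaling 0 of the 11 fell in limma, with 2 lower at an unadjusted p under 0.05 and adjusted p of 0.0806 for Rcor2 and 0.303 for Hdac2, and Gfi1 kept its call. Kdm1a, the demethylase gene of that complex, was at 30.4 to 33.0 TPM and 20.7 to 23.9 TPM, with a log2 change of -0.47 (limma adjusted p 0.147). The groups were apart on that scale and overlapped after rescaling (-0.079, limma adjusted p 0.85).

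Of 23 other ETS genes 13 were tested, 0 rose and 1, the repressor gene Erf, fell (median of the list -0.275, and 0.125 after rescaling, so that its sign turned). Erf was at 13.0, 17.2 and 10.8 TPM against 5.90, 6.93 and 5.79 TPM (log2 change -1.01, limma adjusted p 0.0463), a call lost after rescaling (-0.64, limma adjusted p 0.187). Among 4 RUNX and CBF genes, all tested, and 8 tested of 10 PAR bZIP and PRDM relatives, 0 passed in either direction on either scale, by limma. The median of the RUNX and CBF genes was -0.12 and turned to 0.27 after rescaling, and that of the PAR bZIP and PRDM relatives was -0.45 and -0.10. At an unadjusted limma p under 0.05 on the deposited scale, 1 gene of each of these lists was lower and 0 were higher. Of all tested genes, 24.2% were lower and 3.73% higher at that threshold and scale. After rescaling, 2 of the RUNX and CBF genes, Runx1 and Runx2, were higher and 0 lower at that threshold, and 0 of the PAR bZIP and PRDM relatives were either.

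Genes with regulatory elements known to bind heptad factors numbered 24, all tested, of which 2 rose and 3 fell (median -0.225, and 0.172 after rescaling, where 3 rose and 1 fell). Gfi1 and Procr, a stem cell surface receptor gene, rose, with Procr at 39.0 to 50.2 TPM against 93.6 to 113 TPM (log2 change 1.15, limma adjusted p 0.00491, and 1.55 after rescaling). Among those that fell was Kit, the stem cell factor receptor gene, at 142, 232 and 143 TPM against 103, 92.3 and 91.6 TPM (log2 change -0.81, limma adjusted p 0.0354). Its call was lost after rescaling (-0.40, limma adjusted p 0.224).

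**Figure D5:**
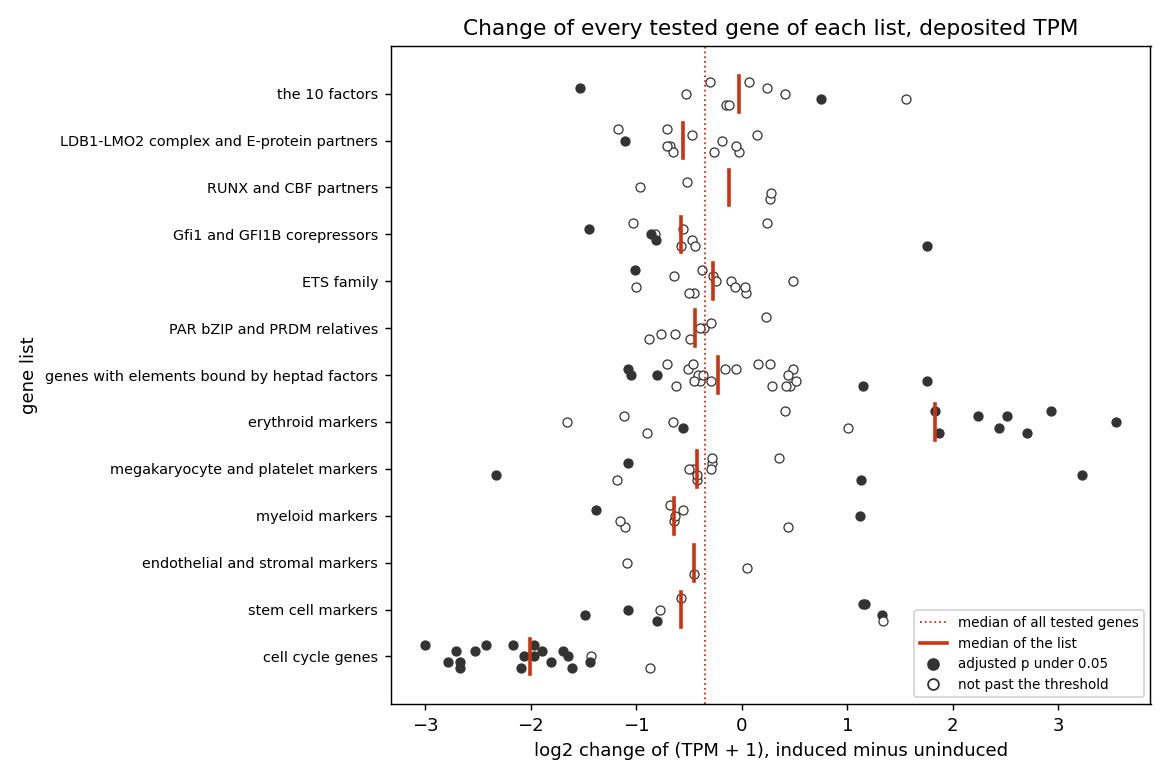
Log2 change of TPM + 1, induced minus uninduced (horizontal axis), on the deposited scale for every tested gene of each list with at least 3 tested genes (rows). Filled points passed a limma adjusted p of 0.05, red bars are list medians and the dotted line is the median of all tested genes at -0.35. The 10 factors centre near -0.027 with 1 filled point on each side. Erythroid markers lie on both sides of 0 and reach farthest to the right, and cell cycle genes lie to the left.

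Several of the 10 factors are also active in erythroid, megakaryocytic and mast cells, so markers of those cells were measured in the same libraries. Of 20 erythroid markers 15 were tested, 8 rose and 1 fell, with a median of 1.83, and their summed level was 418 to 504 TPM in uninduced and 669 to 775 TPM in induced libraries. Hbb-bs, a beta-globin gene, was at 23.4, 9.48 and 12.7 TPM against 183, 153 and 196 TPM (log2 change 3.55, limma adjusted p 0.000255, and 3.94 after rescaling). Hba-a1 and Hba-a2, alpha-globin genes, had log2 changes of 2.93 and 2.70 (limma adjusted p 0.000834 and 0.000198), and Alas2, the erythroid haem synthesis gene, one of 2.51 (limma adjusted p 0.00415). After rescaling these were 3.32, 3.08 and 2.81, and each kept its call. The gene that fell was Car2, a carbonic anhydrase gene (log2 change -0.55, limma adjusted p 0.0372), a call lost after rescaling (limma adjusted p 0.438). Car2 was at 405, 408 and 340 TPM in uninduced and 273, 235 and 276 TPM in induced libraries. It thus made up most of the summed erythroid level in the uninduced libraries. Other markers of the list did not pass. Klf1, an erythroid factor gene, had a log2 change of 1.00 (limma adjusted p 0.26). Epor, the erythropoietin receptor gene, was at 3.42, 2.10 and 4.57 TPM against 0, 0 and 1.45 TPM, apart on both scales (log2 change -1.65, limma adjusted p 0.0638). Gata1, the transferrin receptor gene Tfrc and the water channel gene Aqp1 had log2 changes of -0.65, -0.90 and -1.11 with overlapping groups (limma adjusted p 0.347, 0.174 and 0.143). At an unadjusted limma p under 0.05, 8 of the 15 were higher and 4 lower, and after rescaling 8 and 1. On the deposited scale, 3.73% of all tested genes were higher and 24.2% lower at that threshold. Of 17 megakaryocyte and platelet markers 13 were tested, 2 rose (Ppbp and Pf4) and 2 fell (Gp9 among them), against 2 and 1 after rescaling, with summed levels of 260 to 335 TPM and 226 to 241 TPM. The call of Gp9 was lost after rescaling (limma adjusted p 0.0623). Treml1 was listed at 0 in all libraries. Of 10 mast cell and basophil markers 6 were listed at 0 in every library, Fcer1a and Prss34 included, and the sum was at most 4.12 TPM.

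Of 15 myeloid markers 9 were tested, 1 rose (Prtn3) and 1 fell (Camp), with summed levels of 292 to 351 TPM and 271 to 314 TPM. After rescaling 2 rose, Prtn3 and Lyz2, a lysozyme gene (0.85, limma adjusted p 0.013), and 0 fell, with Camp at an adjusted p of 0.103 and an unadjusted p of 0.0113. Of 10 B cell markers 8 were listed at 0 throughout, Pax5 and Cd79a included, and the sum was at most 9.86 TPM. Of 10 T and NK cell markers 6 were listed at 0 throughout, Cd3e included. Nkg7 was at 6.21, 15.8 and 5.84 TPM in uninduced and listed at 0 in all induced libraries (limma adjusted p 0.00378), and the list's sum was 8.22 to 31.7 TPM and 0.601 to 7.43 TPM, highest in uninduced replicate 2. Of 12 endothelial and stromal markers 3 were tested and 0 passed in limma, also at an unadjusted p under 0.05, with sums of 10.3 to 16.3 TPM over all libraries. A list of 10 genes held Kit, Ly6a and Slamf1, whose proteins the sort required, Cd48, whose protein it excluded, and other stem cell genes. Of the 10 genes 9 were tested, 3 rose (Ly6a, Mllt3 and Procr) and 3 fell (Ctnnal1 and Kit among them), against 3 and 1 after rescaling. The calls of Ctnnal1 and Kit were lost after rescaling (limma adjusted p 0.113 and 0.224). Cd48, at 0 to 3.02 TPM, was not tested. Sums of the 10 genes overlapped at 388 to 525 TPM and 394 to 448 TPM. Of 20 cell cycle genes 18 fell and 0 rose (median -2.01), and 16 fell after rescaling, with sums of 760 to 912 TPM and 177 to 226 TPM. Mcm5, a replication helicase gene, had a log2 change of -2.71 (limma adjusted p 0.00031), and of -2.33 after rescaling. The part of erythroid and cell cycle transcripts in the changes of Hlf, Mecom, Lmo2 and Gfi1b was not tested.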

How the data were processed

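Total RNA of 6 libraries of sorted stem cells was measured, 3 uninduced and 3 induced, grouped by title. The authors deposited TPM values in a single table named for StringTie. The submitters' processing notes list bcl2fastq, HISAT2, StringTie, DESeq2 and GRCm38, without roles or versions, and annotation release and strand setting are not given in the sources used here. A GC content column in percent, deposited by the authors, was not used. Rows numbered 60496. Those sharing an ID were added up, which left 55471 IDs with column totals of 999976 to 999993 TPM. TPM keeps no depth, so no counting interval is given.

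Tests used limma 3.58.1 in R 4.3.3 on log2(TPM + 1) with a variance trend, over the 13470 genes averaging 1 TPM or more, two-sided and Benjamini-Hochberg adjusted over all of them, with a threshold of 0.05. For ratios of gene pairs the exact permutation test was two-sided (scipy 1.17.1, Python 3.11.15), adjusted over 6 pairs without a value of 0. Gene spans are from GENCODE M21 (GRCm38), and log2 changes understate those of low genes. The members, the 15 lists and the pairs were chosen with earlier results of these data known, so no list was tested as a set. Named are all members, Runx1, both genes of each pair and, per list and direction, up to 4 called genes with groups that did not overlap and the largest changes. Some genes that the rule takes are not reported here. Kdm1a, Tcf3, Runx2, Lyz2, Slamf1, Cd48, Klf1, Epor, Tfrc, Aqp1, Treml1, the neighbours Nfix and Pprc1 and the unexpressed markers were chosen after their values were seen. Alternatives numbered 16 planned and 7 added after seeing the data, these being median-of-ratios scaling with a replicate block or with a library left out.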

Additional observations from a re-analysis of the deposited data

How the results depend on the processing

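Of the 10 factors, 1 was higher and 1 lower. The number higher was 0 without the expression filter, without the variance trend and with the replicate block, 3 with median-of-ratios scaling, 2 with quantile normalization, 4 when rescaled to nuclear protein-coding genes and 4 with median-of-ratios scaling and replicate block. The number lower was 0 without the filter, without the trend, under each of the 3 scalings and with median-of-ratios scaling and replicate block. Leaving out a library gave 0 to 2 higher and 0 to 1 lower, and 1 to 4 higher and 0 lower with median-of-ratios scaling. The 1549 genes called over all tested became 752 without the filter, 767 without the trend, 806, 814 and 944 under median-of-ratios, quantile and protein-coding scaling, 902 with the replicate block (120 higher, 782 lower), 451 with median-of-ratios scaling and replicate block, 573 to 1198 without a library, and 292 to 403 without a library after median-of-ratios scaling. Higher and lower calls were 374 and 440 under quantile normalization and 465 and 479 after protein-coding rescaling. Same-numbered libraries share a number and no stated origin: their deviations from group means correlated at 0.0215, -0.0152 and 0.0172, and among the 10 factors the block ended the deposited-scale call of Hlf.

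Directions turned for some of the factors and of their relatives in the pairs, and none of these passed. Ldb1 (-0.30) and Prdm16 (-0.36 on the deposited scale) were among them. Under median-of-ratios, quantile and protein-coding scaling, Gata2 became 0.25, 0.25 and 0.28, Fli1 0.28, 0.26 and 0.31, Ldb1 0.11, 0.097 and 0.14, and Lmo4 0.35, 0.34 and 0.38. Prdm16 became 0.018 under median-of-ratios and 0.045 under protein-coding scaling. With median-of-ratios scaling and replicate block, Gata2 was 0.25, Fli1 0.28, Ldb1 0.11, Prdm16 0.018 and Lmo4 0.35, and with array weights Lmo4 was 0.0054. Leaving out each library on the deposited scale gave ranges of -0.28 to 0.074 for Gata2, -0.046 to 0.21 for Erg, -0.12 to 0.11 for Lmo4 and -0.043 to 0.32 for the log2 ratio of Erg to Fli1. It turned no sign of Lyl1 (-1.01 to -0.15), Fli1 (-0.25 to -0.0036), Ldb1 (-0.42 to -0.12) or Prdm16 (-0.67 to -0.066). After median-of-ratios scaling, the ranges without a library were 0.11 to 0.42 for Gata2, -0.67 to 0.22 for Lyl1, 0.31 to 0.63 for Erg, 0.19 to 0.37 for Fli1, 0.0030 to 0.29 for Ldb1, -0.29 to 0.27 for Prdm16 and 0.24 to 0.43 for Lmo4. For the filter and the trend the cause was not tested. Depth behind each value is unknown.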

Other observations

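The genes whose levels over the 6 libraries were most like those of the called factors were ranked by Pearson r of log2(TPM + 1) among 5400 protein-coding genes averaging 10 TPM or more, as a description of these libraries. For Hlf they were Hba-a1, an alpha-globin gene, with a Pearson r of 0.974, Rsrp1 with 0.973 and Prtn3, a granule protease gene, with 0.972. For Gfi1b they were Tuba1c, a tubulin gene, with 0.990, Guk1, a nucleotide kinase gene, with 0.986 and Uchl3, a deubiquitinase gene, with 0.986. All points share the same 6 libraries, which fall into 2 groups.

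Ldb1 shares 329 bases with Pprc1, a coactivator gene on the opposite strand. Pprc1 was at 25.1, 10.3 and 13.2 TPM in uninduced and at 3.09, 5.62 and 3.89 TPM in induced libraries (log2 change -1.66, limma adjusted p 0.0207, and 0.0832 after median-of-ratios scaling). The ratio of these neighbours was not tested.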
